A study of Mus musculus with 9 samples.

Results

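Corticosterone signalling in the medial prefrontal cortex was followed through 7 genes: the receptor genes Nr3c1 and Nr3c2, the receptor co-chaperone genes Fkbp5 and Fkbp4, the hormone-induced genes Tsc22d3 and Rasd1, and the steroid enzyme gene Hsd11b1. They were picked by symbol from 36172 features, all 7 were found, and all 7 were among the 15144 genes that passed the filter on low counts. The genes were chosen with earlier results of these libraries known, so their levels and fold changes are given as a description and no p is attached to any of them. The medial prefrontal cortex of mice of the strain DBA2/J was flash frozen, and its RNA was sequenced in 9 libraries that fall into 3 groups of 3. SA:ANH-KDM5Ci mice went through 5 days of social defeat stress and received an inhibitor of KDM5C, a demethylase of lysine 4 on histone H3. SA:ANH-vehicle mice went through the same stress and received no inhibitor, and NS mice were not stressed. The treatment labels give saline for the SA:ANH-vehicle and the NS groups. The inhibitor's name and dose, the age and sex of the mice and the meaning of SA:ANH are not given in the sources used here. No group combines the inhibitor with the absence of stress, so SA:ANH-KDM5Ci against NS spans both differences.

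Corticosterone, the main glucocorticoid of mice, enters the brain and binds the mineralocorticoid receptor (Nr3c2) with high affinity and the glucocorticoid receptor (Nr3c1) with lower affinity, so the glucocorticoid receptor fills mainly under stress. Without hormone the glucocorticoid receptor is held in the cytoplasm by HSP90 and a co-chaperone. FKBP5 in that complex lowers the receptor's affinity for hormone, and FKBP4 favours its transport to the nucleus. The active receptor induces Fkbp5, which closes a short negative feedback loop within the cell. It also induces Tsc22d3, which encodes the leucine zipper protein GILZ, and Rasd1, which encodes the Ras-like protein Dexras1, named for its induction by dexamethasone. HSD11B1 regenerates active corticosterone from its inert keto form inside cells.

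The promoters of Fkbp5 and Tsc22d3, the members whose groups did not overlap in any comparison, are shown with that of Fkbp4, the co-chaperone gene whose groups overlapped in all of them, so that these start sites can be read side by side. RefSeq's GRCm38.p6 table held 300 bases for each promoter, from 250 bases before the start site on, and 7 promoters of 5 members matched by symbol: Fkbp5, Fkbp4, Nr3c2, Hsd11b1 and, with 3, Tsc22d3. Each is printed 5′ to 3′ on the gene's strand, which is the minus strand for all 3 genes, at chr17:28486100-28486399 for Fkbp5, chr6:128438607-128438906 for Fkbp4, and chrX:140542619-140542918, chrX:140600473-140600772 and chrX:140548522-140548821 for Tsc22d3. Capitals mark a match to the receptor's recognition hexamer.
Fkbp5: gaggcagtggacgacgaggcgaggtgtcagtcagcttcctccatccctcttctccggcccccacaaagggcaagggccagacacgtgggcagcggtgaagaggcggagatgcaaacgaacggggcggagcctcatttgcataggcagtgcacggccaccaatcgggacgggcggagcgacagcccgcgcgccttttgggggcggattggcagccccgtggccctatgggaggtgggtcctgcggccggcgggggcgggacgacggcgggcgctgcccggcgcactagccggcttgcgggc
Fkbp4: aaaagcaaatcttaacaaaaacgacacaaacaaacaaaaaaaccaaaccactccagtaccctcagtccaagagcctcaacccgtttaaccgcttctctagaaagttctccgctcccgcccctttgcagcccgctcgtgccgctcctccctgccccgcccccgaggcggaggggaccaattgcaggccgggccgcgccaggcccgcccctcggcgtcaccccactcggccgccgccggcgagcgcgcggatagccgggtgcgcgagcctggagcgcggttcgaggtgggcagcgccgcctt
Tsc22d3 promoter 1: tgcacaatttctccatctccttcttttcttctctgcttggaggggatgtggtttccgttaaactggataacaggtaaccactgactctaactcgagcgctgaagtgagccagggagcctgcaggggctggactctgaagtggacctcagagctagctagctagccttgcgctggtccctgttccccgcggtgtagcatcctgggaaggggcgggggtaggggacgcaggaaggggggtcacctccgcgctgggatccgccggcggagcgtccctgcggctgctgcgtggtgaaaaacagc
Tsc22d3 promoter 2: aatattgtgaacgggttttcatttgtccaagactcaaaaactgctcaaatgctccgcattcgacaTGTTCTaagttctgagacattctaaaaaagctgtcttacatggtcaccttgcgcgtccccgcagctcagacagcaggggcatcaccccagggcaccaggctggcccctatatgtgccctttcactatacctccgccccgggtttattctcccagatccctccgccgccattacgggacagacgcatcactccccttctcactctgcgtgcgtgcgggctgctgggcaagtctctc
Tsc22d3 promoter 3: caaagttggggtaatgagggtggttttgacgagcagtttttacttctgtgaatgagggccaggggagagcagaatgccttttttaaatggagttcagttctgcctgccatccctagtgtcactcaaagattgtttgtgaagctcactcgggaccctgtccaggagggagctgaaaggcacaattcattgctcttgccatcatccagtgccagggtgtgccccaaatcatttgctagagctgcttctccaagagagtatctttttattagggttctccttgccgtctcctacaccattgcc

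Both strands were searched for the palindromic glucocorticoid response element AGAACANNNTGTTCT, for its core GNACANNNTGTNC, which the full element contains, and for the hexamers TGTTCT, which is an arm of the full element, and TGTCCT. The full element lay in 3 of the 32851 promoters of the table (0.00913%), the core in 156 (0.475%), TGTTCT in 6233 (19.0%) and TGTCCT in 6588 (20.1%). Among the 7 member promoters there was a single match, TGTTCT in the second Tsc22d3 promoter, at bases 66 to 71, which begin 185 bases upstream of the start site. The absence of these letters from the other windows says nothing of more distant sites. The Fkbp5 promoter was 70.7% G and C with 32 CpG, and the Fkbp4 promoter 65.3% with 33, against medians of 52.7% and 7 over the table. The 3 Tsc22d3 promoters were more varied, with 60.3%, 54.3% and 48.7% G and C and 16, 15 and 3 CpG.

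The libraries held from 29845097 to 42196472 expected counts, with 30525714 to 40700115 in SA:ANH-KDM5Ci, 33733470 to 42196472 in SA:ANH-vehicle and 29845097 to 36033714 in NS. Levels are given as CPM, the counts of a gene per 1000000 counts of a library whose size was scaled by TMM. Markers of excitatory neurons and astrocytes were abundant, as cortex should have them, at summed levels of 6940 to 7580 CPM and 3660 to 4400 CPM over the 9 libraries. The first principal component held 29.4% of the variance. On it SA:ANH-KDM5Ci stood at 12.5 to 22.2, apart from SA:ANH-vehicle at -7.56 to -5.66 and NS at -19.3 to -3.39. Sums of other markers stood apart between some of these groups for meninges, endothelium and blood, and overlapped between all groups for striatum and oligodendrocytes. The 10 meningeal and fibroblast markers summed to 86.0 to 95.4 CPM in SA:ANH-KDM5Ci, 125 to 201 CPM in SA:ANH-vehicle and 110 to 179 CPM in NS, with 3 of 10 past the threshold (an adjusted p under 0.05 over all genes) as lower in SA:ANH-KDM5Ci than in SA:ANH-vehicle. The 9 striatal markers summed to 296 to 680 CPM in SA:ANH-KDM5Ci, 265 to 350 CPM in SA:ANH-vehicle and 231 to 395 CPM in NS, with none of 9 past it, and were highest in SA:ANH-KDM5Ci replicate 1. The 6 endothelial markers summed to 120 to 152 CPM in SA:ANH-KDM5Ci, 154 to 172 CPM in SA:ANH-vehicle and 165 to 176 CPM in NS, with 2 of 6 past it as lower in both comparisons of SA:ANH-KDM5Ci, and their part in the members' differences was not tested. The 6 oligodendrocyte markers summed to 2640 to 3450 CPM in SA:ANH-KDM5Ci, 1870 to 2950 CPM in SA:ANH-vehicle and 1450 to 2940 CPM in NS. The 5 blood markers found summed to 444 to 586 CPM in SA:ANH-KDM5Ci, 486 to 554 CPM in SA:ANH-vehicle and 279 to 321 CPM in NS. Of these 5, 5 were past the threshold as higher in SA:ANH-KDM5Ci than in NS and 2 as higher in SA:ANH-vehicle than in NS. Between SA:ANH-KDM5Ci and SA:ANH-vehicle 0 were past it. The part of blood in the members' differences from NS was not tested. No marker was at 0 in every library. In bulk tissue a smaller share of cells of a type and less RNA per cell cannot be told apart.

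**Figure D1:**
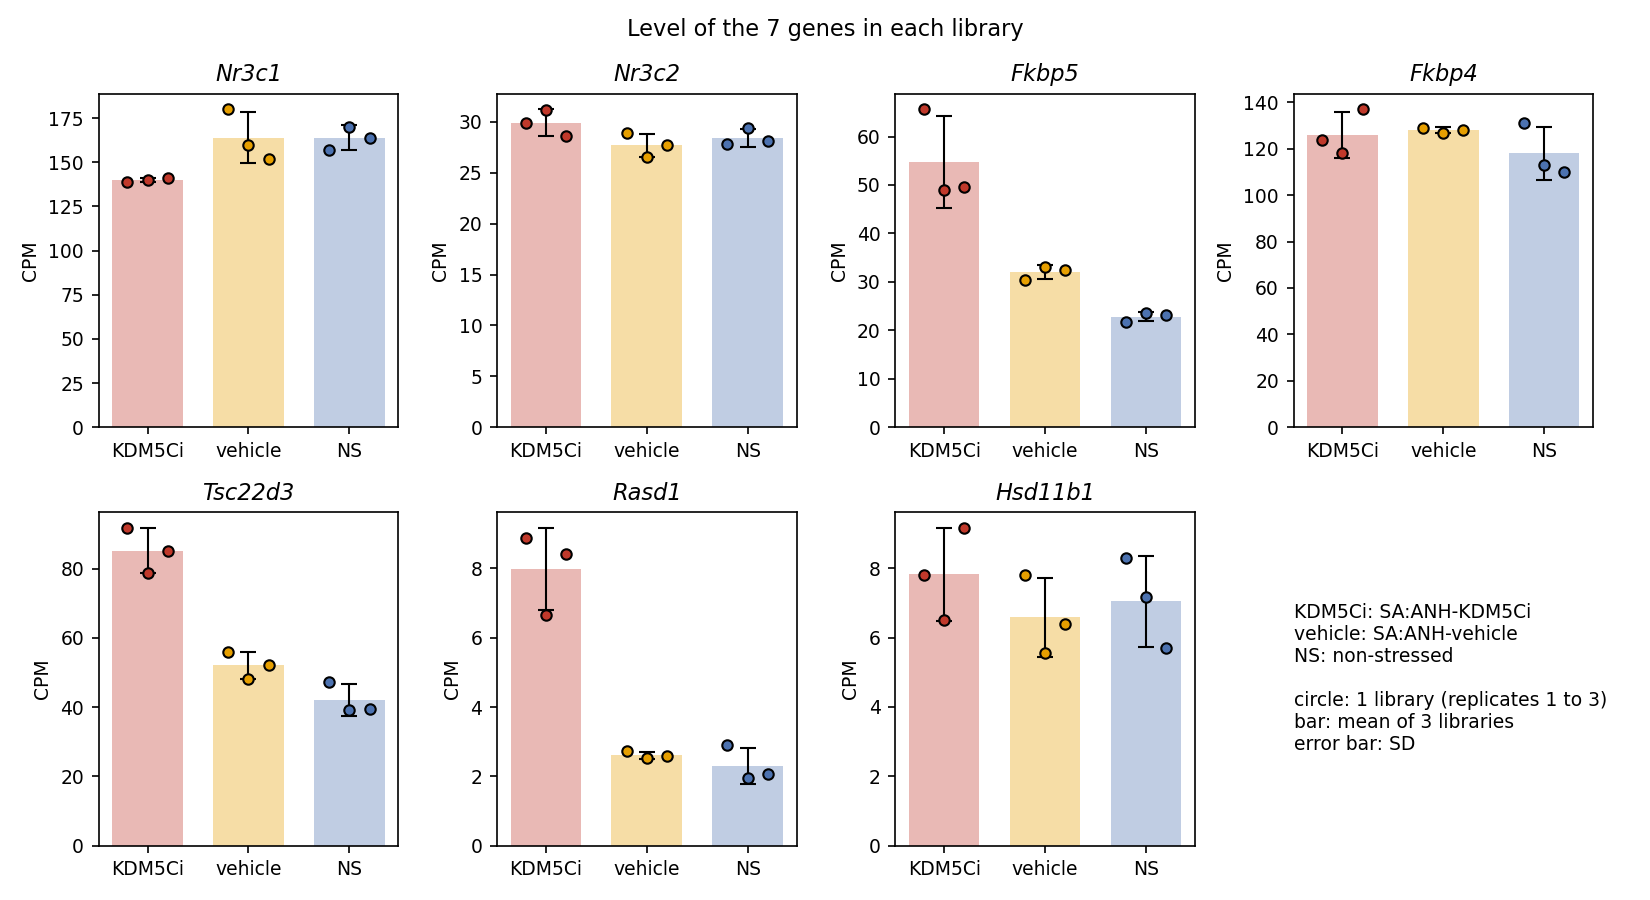
Level in CPM of the 7 genes in each library, 1 panel per gene with its own axis starting at 0, for SA:ANH-KDM5Ci, SA:ANH-vehicle and NS from left to right. Circles are libraries, bars are means and error bars are SD (n = 3). Fkbp5, Tsc22d3 and Rasd1 are highest in every SA:ANH-KDM5Ci library, Nr3c1 is lowest there, and Nr3c2, Fkbp4 and Hsd11b1 overlap between all groups.

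Nr3c1 (gene 14815, GRCm38 chromosome 18, 39410545 to 39519421, minus strand), the glucocorticoid receptor, had 139, 140 and 141 CPM in SA:ANH-KDM5Ci, 180, 160 and 152 CPM in SA:ANH-vehicle and 157, 170 and 164 CPM in NS. All 3 SA:ANH-KDM5Ci libraries lay below the other 6, and they lay close together, with a coefficient of variation of 0.882% against 8.82% in SA:ANH-vehicle and 4.22% in NS. The means were 140 ± 1.24 CPM in SA:ANH-KDM5Ci, 164 ± 14.5 CPM in SA:ANH-vehicle and 164 ± 6.91 CPM in NS (SD, n = 3). The log2 fold change of Nr3c1 was -0.23 (SE 0.06, 0.854-fold) for SA:ANH-KDM5Ci against SA:ANH-vehicle and -0.22 (SE 0.06, 0.856-fold) against NS, and 0.00 (SE 0.06) for SA:ANH-vehicle against NS. Of the genes tested, 18.1% had a larger change, in either direction, against SA:ANH-vehicle and 21.4% against NS. These shares are over genes of all levels, also those with few counts, whose fold changes vary more. Without SA:ANH-vehicle replicate 1, the library highest in Nr3c1 and in meningeal markers, the difference from SA:ANH-vehicle was -0.15. Nr3c1 was not past the threshold in the reported fit. Over 20 alternatives it was past it in 3 against SA:ANH-vehicle and in 7 against NS. These reuse the libraries whose contrasts entered the choice of the genes, so nothing is read from those counts. With the meningeal marker score as a covariate the log2 fold change was -0.04 against SA:ANH-vehicle and -0.05 against NS. As that score did not overlap between SA:ANH-KDM5Ci and the other groups, the score and the group cannot be told apart.

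Nr3c2 (gene 110784, chromosome 8, 76898083 to 77245012, plus strand), the mineralocorticoid receptor, had 29.9, 31.2 and 28.6 CPM in SA:ANH-KDM5Ci, 28.9, 26.6 and 27.7 CPM in SA:ANH-vehicle and 27.8, 29.4 and 28.1 CPM in NS. The groups overlapped in every comparison, and their means were 29.9 ± 1.33 CPM in SA:ANH-KDM5Ci, 27.7 ± 1.14 CPM in SA:ANH-vehicle and 28.4 ± 0.868 CPM in NS (SD, n = 3). The log2 fold changes were 0.11 (SE 0.06) for SA:ANH-KDM5Ci against SA:ANH-vehicle, 0.07 (SE 0.06) against NS and -0.04 (SE 0.06) for SA:ANH-vehicle against NS. The receptors' balance was computed within each library from counts per kilobase of exon, which cancels depth. Nr3c1 stood at 3.78 to 4.17 times Nr3c2 in SA:ANH-KDM5Ci, 4.62 to 5.25 times in SA:ANH-vehicle and 4.75 to 4.92 times in NS. The ratio was thus below the other 6 libraries in all 3 SA:ANH-KDM5Ci libraries, and SA:ANH-vehicle and NS overlapped.

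Fkbp5 (gene 14229, chromosome 17, 28398753 to 28486149, minus strand), the co-chaperone that restrains the receptor, had 65.6, 49.0 and 49.5 CPM in SA:ANH-KDM5Ci, 30.4, 33.1 and 32.5 CPM in SA:ANH-vehicle and 21.7, 23.6 and 23.1 CPM in NS. Its 3 groups were fully apart from each other, highest in SA:ANH-KDM5Ci and lowest in NS, as was found for 1 other member, Tsc22d3. Its means were 54.7 ± 9.46 CPM in SA:ANH-KDM5Ci, 32.0 ± 1.40 CPM in SA:ANH-vehicle and 22.8 ± 0.965 CPM in NS (SD, n = 3). The log2 fold change was 0.77 (SE 0.10, 1.71-fold) for SA:ANH-KDM5Ci against SA:ANH-vehicle, 1.26 (SE 0.10, 2.39-fold) against NS and 0.49 (SE 0.10, 1.40-fold) for SA:ANH-vehicle against NS. Of the genes tested, 2.1%, 0.779% and 3.59% had a larger change in these comparisons. SA:ANH-KDM5Ci replicate 1, which also had the most striatal marker RNA, was the highest Fkbp5 library. Without it the difference was 0.62 from SA:ANH-vehicle and 1.11 from NS, and with the striatal score as a covariate 0.65 and 1.13. Several non-coding genes overlap the Fkbp5 span, among them AC154912.1 on the opposite strand (chromosome 17, 28446500 to 28456457). None of these matched a feature of the count table, and the use of strand in counting is not given in the sources used here. Whether reads of such a gene were kept apart from Fkbp5 reads is thus not known.

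Fkbp4 (gene 14228, chromosome 6, 128430103 to 128438656, minus strand), the co-chaperone that takes FKBP5's place in the receptor complex, had 124, 118 and 137 CPM in SA:ANH-KDM5Ci, 129, 127 and 128 CPM in SA:ANH-vehicle and 131, 113 and 110 CPM in NS. The groups overlapped in each comparison. The log2 fold change was -0.02 (SE 0.07, 0.985-fold) for SA:ANH-KDM5Ci against SA:ANH-vehicle, a size that 85.4% of the genes tested exceeded, 0.09 (SE 0.07) against NS and 0.11 (SE 0.07) for SA:ANH-vehicle against NS. Per kilobase, Fkbp5 counts stood at 0.107 to 0.157 of Fkbp4 counts in SA:ANH-KDM5Ci, 0.0694 to 0.0771 in SA:ANH-vehicle and 0.0488 to 0.0622 in NS. The 3 groups did not overlap in this ratio, and Fkbp4 was the more abundant transcript in every library.

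Tsc22d3 (gene 14605, chromosome X, 140539528 to 140600522, minus strand), the GILZ gene, had 91.8, 78.9 and 85.0 CPM in SA:ANH-KDM5Ci, 55.9, 48.1 and 52.2 CPM in SA:ANH-vehicle and 47.3, 39.3 and 39.5 CPM in NS. The SA:ANH-KDM5Ci libraries stood well above all others, and the lowest SA:ANH-vehicle library was just above the highest NS library. The means were 85.2 ± 6.45 CPM in SA:ANH-KDM5Ci, 52.1 ± 3.91 CPM in SA:ANH-vehicle and 42.1 ± 4.58 CPM in NS (SD, n = 3). The log2 fold change was 0.71 (SE 0.08, 1.64-fold) for SA:ANH-KDM5Ci against SA:ANH-vehicle, 1.02 (SE 0.08, 2.03-fold) against NS and 0.31 (SE 0.08, 1.24-fold) for SA:ANH-vehicle against NS. A larger change was found for 2.6%, 1.34% and 7.96% of the genes tested. Over the alternatives other than leaving out 1 library, the lowest Tsc22d3 values were 0.55 against SA:ANH-vehicle and 0.86 against NS for SA:ANH-KDM5Ci. Counts of the 3 start sites are not separated in a table of genes, so which of the printed promoters carried the difference was not tested. Per kilobase, Tsc22d3 stood at 0.998 to 1.17 of Nr3c1 in SA:ANH-KDM5Ci, 0.532 to 0.608 in SA:ANH-vehicle and 0.408 to 0.535 in NS, so the SA:ANH-KDM5Ci libraries held about as much of the transcript as of the receptor's.

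Rasd1 (gene 19416, chromosome 11, 59963181 to 59964944, minus strand), the Dexras1 gene, had 8.89, 6.66 and 8.41 CPM in SA:ANH-KDM5Ci, 2.72, 2.52 and 2.59 CPM in SA:ANH-vehicle and 2.91, 1.95 and 2.07 CPM in NS. The SA:ANH-KDM5Ci libraries were apart from the other 6, while SA:ANH-vehicle and NS overlapped, unlike in Fkbp5 and Tsc22d3. The means were 7.99 ± 1.18 CPM in SA:ANH-KDM5Ci, 2.61 ± 0.101 CPM in SA:ANH-vehicle and 2.31 ± 0.522 CPM in NS (SD, n = 3), from 62 to 338 counts per library. The log2 fold change was 1.61 (SE 0.16, 3.06-fold) for SA:ANH-KDM5Ci against SA:ANH-vehicle and 1.78 (SE 0.16, 3.45-fold) against NS, the largest of the 7 in both. It was 0.17 (SE 0.17) for SA:ANH-vehicle against NS. A larger change was found for 0.225% and 0.185% of the genes tested in the 2 comparisons of SA:ANH-KDM5Ci. With the striatal score as a covariate the values were 1.33 and 1.51.

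Hsd11b1 (gene 15483, chromosome 1, 193221640 to 193264045, minus strand), the enzyme that regenerates corticosterone, had 7.81, 6.50 and 9.16 CPM in SA:ANH-KDM5Ci, 7.80, 5.54 and 6.38 CPM in SA:ANH-vehicle and 8.28, 7.16 and 5.69 CPM in NS. The groups overlapped in all comparisons and each spanned much of the same range. The log2 fold change was 0.25 (SE 0.16, 1.19-fold) for SA:ANH-KDM5Ci against SA:ANH-vehicle, 0.15 (SE 0.17) against NS and -0.10 (SE 0.17) for SA:ANH-vehicle against NS. With the striatal score as a covariate it was -0.01 and -0.11 in the 2 comparisons of SA:ANH-KDM5Ci. Lamb3, on the opposite strand, and the antisense gene 4930570N18Rik overlap Hsd11b1. Lamb3 had 48.0 to 91.7 counts per library. The libraries were strand-specific, but the use of strand in counting is not given in the sources used here. Whether reads of the overlapping stretch were kept apart is thus not known.

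**Figure D2:**
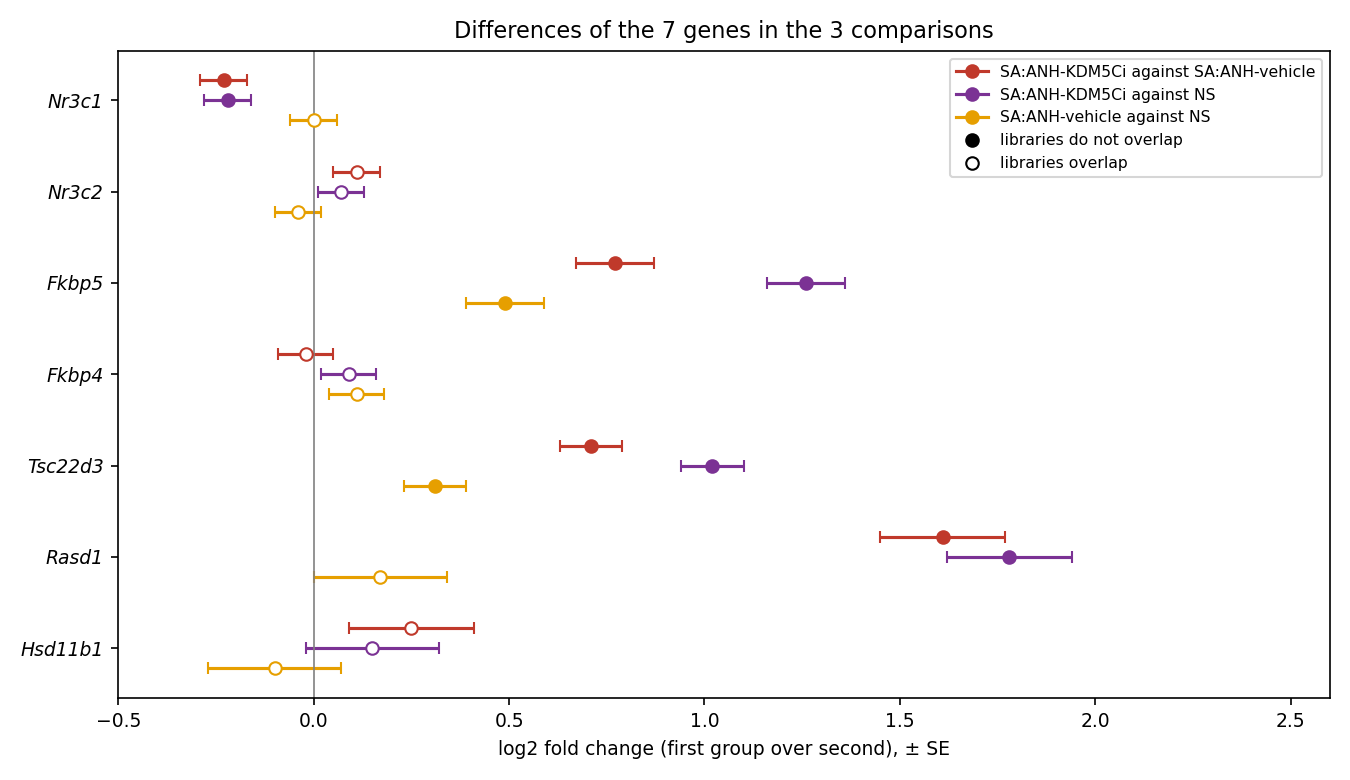
Log2 fold change of the 7 genes in the 3 comparisons, with bars of 1 SE from the fit of all 15144 genes. A filled point means that the libraries of the groups do not overlap. Rasd1 reaches 1.61 and 1.78 in the comparisons of SA:ANH-KDM5Ci, Fkbp5 and Tsc22d3 are above 0 in all 3 comparisons, and Nr3c1 is at -0.23 and -0.22 where SA:ANH-KDM5Ci is compared.

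Counted against the threshold that edgeR's quasi-likelihood test sets over all genes (Benjamini-Hochberg adjusted, 0.05), 3 of the 7 genes stood past it as higher in SA:ANH-KDM5Ci than in SA:ANH-vehicle, namely Fkbp5, Tsc22d3 and Rasd1, and 0 as lower. Over all genes 0.891% were past it as higher and 1.62% as lower, 2.51% in all. The same 3 genes were past it against NS, where 1.86% of all genes were past it as higher, 2.11% as lower and 3.97% in all. For SA:ANH-vehicle against NS 0 of 7 were past it, and 0.0132% of all genes were, which is 2 genes, the blood markers that rose, with 1244 at an unadjusted p under 0.05. DESeq2 put 1 of the 7, Fkbp5, past it there and limma-voom 0. In both comparisons of SA:ANH-KDM5Ci limma-voom put the same 3 genes past it, and DESeq2 put 4 past it, the 3 and Nr3c1 as lower at -0.22. Libraries of the 2 groups did not overlap for 3 members as higher and 1 as lower in SA:ANH-KDM5Ci against SA:ANH-vehicle, where 7.92% and 10.9% of all genes did not overlap. Either way, 18.9% of all genes did not overlap there. The members numbered 3 and 1 against NS, where 11.5% and 12% of all genes did not overlap (23.5% either way), and 2 and 0 for SA:ANH-vehicle against NS, where 8.29% and 6.81% did not (15.1% either way). The median log2 fold change of the 7 was 0.25, 0.15 and 0.11 in SA:ANH-KDM5Ci against SA:ANH-vehicle, against NS, and SA:ANH-vehicle against NS, where the medians of all genes were 0.003, 0 and 0.004. As these contrasts entered the choice of the genes, nothing is read from these counts, and the 3 comparisons share libraries. With the meningeal score as a covariate none of the 3 genes was past the threshold against SA:ANH-vehicle, at log2 fold changes of 0.74 for Fkbp5, 0.65 for Tsc22d3 and 1.37 for Rasd1, and all 3 were past it against NS, at 1.23, 0.97 and 1.57.

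**Figure D3:**
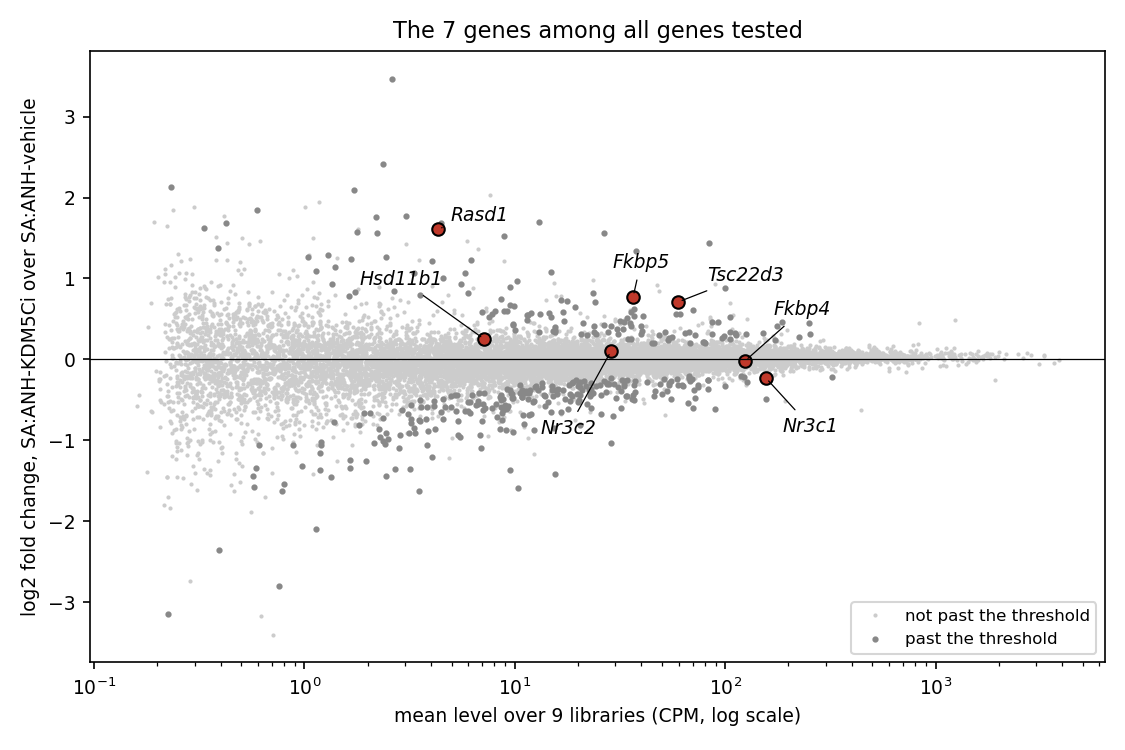
Place of the 7 genes among all genes tested, as the mean level over 9 libraries (CPM, log scale) on the x axis and the log2 fold change of SA:ANH-KDM5Ci over SA:ANH-vehicle on the y axis. Light points are genes not past the threshold, dark points those past it, and labelled red points the 7 genes: Rasd1 (1.61), Fkbp5 (0.77) and Tsc22d3 (0.71) lie above the bulk of genes of like level, Nr3c1 (-0.23) lies at its lower edge, and the rest lie within it.

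Levels were set in order per length of merged exons (CPM per kilobase, lengths from GENCODE M21). Fkbp4 was the most abundant of the 7 in every group, at 45.1 ± 3.52 CPM per kilobase in SA:ANH-KDM5Ci, 45.8 ± 0.488 in SA:ANH-vehicle and 42.3 ± 4.15 in NS (SD, n = 3). Next in SA:ANH-KDM5Ci came Tsc22d3 (19.6 ± 1.48) and Nr3c1 (18.2 ± 0.161), whose libraries overlapped. Within a library Tsc22d3 stood at 0.998 to 1.17 of Nr3c1 there. In SA:ANH-vehicle and in NS these genes were further apart, with Nr3c1 ahead of Tsc22d3 at 21.4 ± 1.88 against 12 ± 0.90 and at 21.3 ± 0.90 against 9.69 ± 1.06. Nr3c2, Fkbp5 and Rasd1 followed. In SA:ANH-KDM5Ci Fkbp5 (5.78 ± 0.999), Rasd1 (4.96 ± 0.73) and Nr3c2 (4.61 ± 0.206) were neighbours whose libraries overlapped from each to the next. In SA:ANH-vehicle Nr3c2 (4.29 ± 0.176) was above Fkbp5 (3.38 ± 0.148), and in NS at 4.39 ± 0.134 it was above Fkbp5 at 2.41 ± 0.102. Rasd1 and Hsd11b1 were lowest and overlapped in SA:ANH-vehicle (1.62 ± 0.0627 and 1.55 ± 0.269) and in NS (1.44 ± 0.324 and 1.66 ± 0.306), although Hsd11b1 was above Rasd1 within each NS library. In SA:ANH-KDM5Ci Hsd11b1 was lowest at 1.84 ± 0.313. The transcript length in use was not measured, so the order holds for merged exons.

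The profiles of the members over the 9 libraries were compared by the root mean square difference of their log2 CPM after centring each gene, a measure with no test in which a smaller value is more alike. Fkbp5 and Tsc22d3 differed by 0.176, Fkbp5 and Rasd1 by 0.396 and Tsc22d3 and Rasd1 by 0.398. Nr3c2 and Fkbp4, which both varied little, differed by 0.134, and Nr3c1 and Rasd1 were least alike at 0.923. Of 13472 genes with a symbol and at least 1 CPM on average, the nearest to Fkbp5 were Ctla2a (0.136), Slc2a1, which encodes the glucose transporter GLUT1 (0.137), and Ms4a6b (0.169). Nearest to Tsc22d3 were Slc2a1 (0.107), Tmcc3 (0.108) and Olig2, a transcription factor of the oligodendrocyte lineage (0.118). Nearest to Rasd1 were Nfkbia, the inhibitor of NF-kB (0.118), Sgk1, a kinase induced by glucocorticoids (0.169), and Plekhf1 (0.224). With a smaller prior count, 2 of the 3 nearest were shared for Fkbp5, with Tsc22d3 (0.176) in place of Ms4a6b, 2 of 3 for Rasd1, with Zfp189 (0.227) in place of Plekhf1, and 3 of 3 for Tsc22d3. The genes near Fkbp5 had log2 fold changes of 0.67 to 0.88 against SA:ANH-vehicle and of 0.24 to 0.72 for SA:ANH-vehicle against NS, and those near Rasd1 1.44 to 1.56 and 0.02 to 0.34. As they were picked by likeness over these same 9 libraries, their fold changes resemble the member's by that choice. The libraries share their depth and the group differences, and the oligodendrocyte marker level given above also differed between libraries. Its part in the likeness of Tsc22d3 and Olig2 was not tested.

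The rest of the pathway was read from 7 lists that hold none of the 7 genes. They were drawn up with earlier results of these data known, so their direction is not independent evidence. Of 30 other glucocorticoid-induced genes, all tested, 13 rose and 0 fell in SA:ANH-KDM5Ci against SA:ANH-vehicle, 15 rose and 0 fell against NS, and 0 of 30 passed for SA:ANH-vehicle against NS (edgeR, quasi-likelihood, with Benjamini-Hochberg values taken over all genes). For SA:ANH-vehicle against NS 3 of the 30 were at an unadjusted p under 0.05, as were 1244 of all 15144 genes, and DESeq2 and limma-voom called 0 of the 30. The medians of log2 fold change were 0.53, 0.63 and 0.07, where 0.891%, 1.86% and 0.0132% of all genes rose. Sgk1 had 161, 134 and 143 CPM in SA:ANH-KDM5Ci, 56.6, 53.0 and 51.6 CPM in SA:ANH-vehicle and 57.6, 48.4 and 52.9 CPM in NS. All SA:ANH-KDM5Ci libraries were far above the other 6, which overlapped. Sgk1 rose by 1.44 (SE 0.08, edgeR adjusted p = 5.96e-07) against SA:ANH-vehicle, and was at 0.02 (SE 0.08, adjusted p = 0.977) for SA:ANH-vehicle against NS. Nfkbia had 52.7, 40.9 and 50.5 CPM in SA:ANH-KDM5Ci, 17.5, 16.5 and 14.9 CPM in SA:ANH-vehicle and 16.0, 12.7 and 15.5 CPM in NS, and it rose by 1.56 (SE 0.11, edgeR adjusted p = 1.02e-05) against SA:ANH-vehicle and 1.71 (SE 0.11, adjusted p = 3.36e-06) against NS.

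Further genes of the list rose in SA:ANH-KDM5Ci over SA:ANH-vehicle. Errfi1, a feedback inhibitor of the EGF receptor, was at 49.1 ± 2.32 CPM in SA:ANH-KDM5Ci and 31.9 ± 1.56 CPM in SA:ANH-vehicle (log2 fold change 0.62, edgeR adjusted p = 5.78e-05). Ddit4, an inhibitor of mTORC1, was at 62.6 ± 10.8 CPM in SA:ANH-KDM5Ci and 24.6 ± 1.91 CPM in SA:ANH-vehicle (1.34, adjusted p = 9.01e-05), and Map3k6, a stress-activated kinase, at 5.75 ± 1.5 CPM in SA:ANH-KDM5Ci and 1.68 ± 0.124 CPM in SA:ANH-vehicle (1.77, adjusted p = 0.000188). Klf15, a transcription factor of amino acid and glucose metabolism, was at 25.5 ± 1.32 CPM in SA:ANH-KDM5Ci and 16.4 ± 0.522 CPM in SA:ANH-vehicle (0.64, adjusted p = 0.000209). Against NS Klf9, a transcription factor, rose to 231 ± 5.99 CPM, with 162 ± 10.4 CPM in NS (0.52, edgeR adjusted p = 8.73e-05). The other genes that rose against SA:ANH-vehicle were Klf9, Cdkn1a, Arrdc2, Pnpla2, Cebpd, Bcl6 and Plin4, named after their values were seen. For SA:ANH-vehicle against NS the genes of lowest p were Cebpd, a transcription factor, at 0.84 (SE 0.24, edgeR adjusted p = 0.33), and Mt1, a metallothionein, at 0.26 (SE 0.09, adjusted p = 0.415). With the meningeal score as a covariate, 4 of the 13 calls against SA:ANH-vehicle were kept (Errfi1, Map3k6, Nfkbia and Sgk1), and with the striatal score 9 were.

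**Figure D4:**
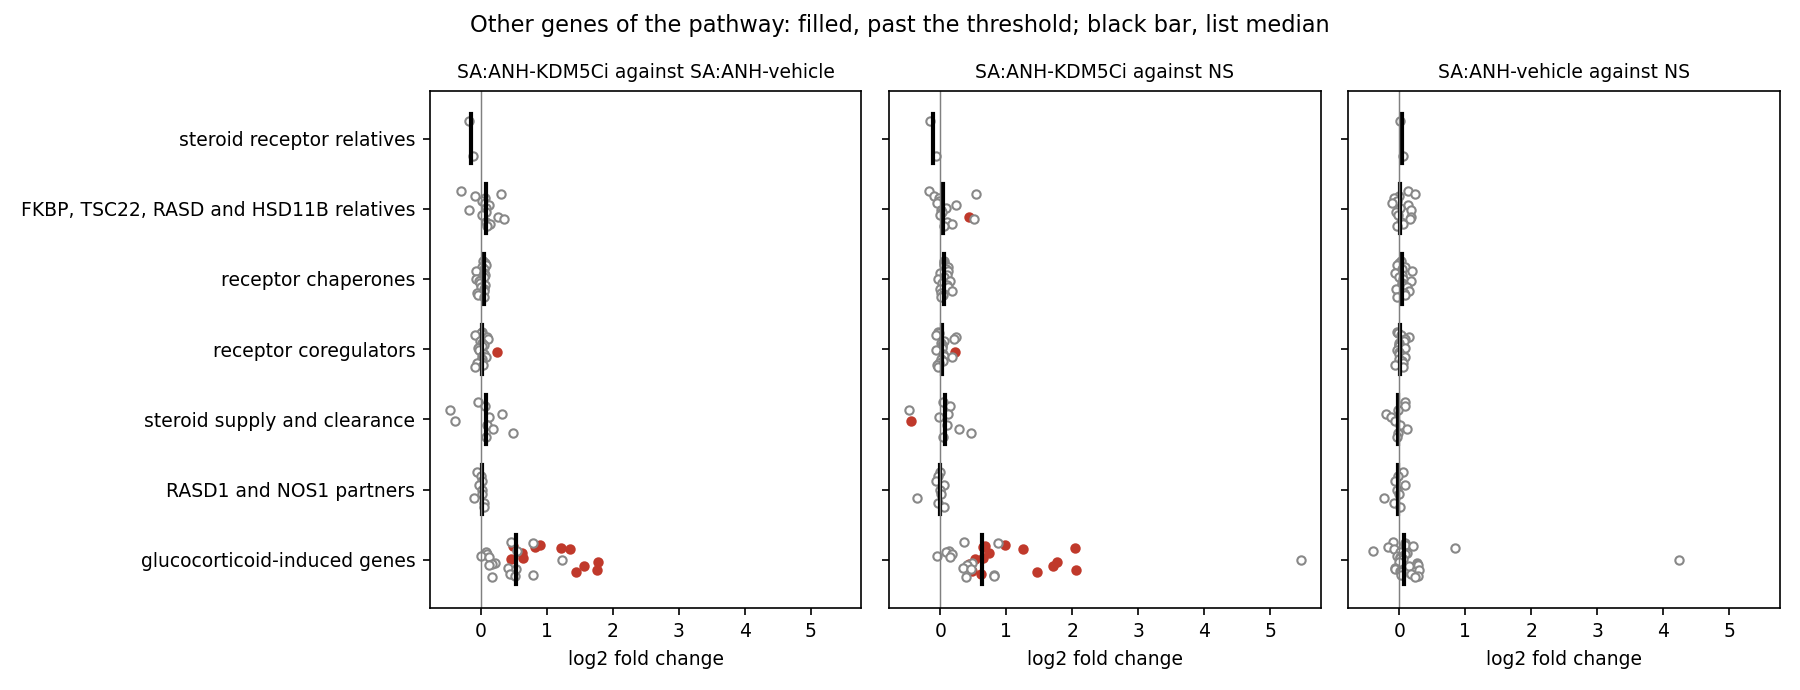
Log2 fold change of every tested gene of the 7 pathway lists for SA:ANH-KDM5Ci against SA:ANH-vehicle, SA:ANH-KDM5Ci against NS and SA:ANH-vehicle against NS. Each point is a gene, filled where it passed the threshold, and a black bar marks the list's median. The list of glucocorticoid-induced genes has medians of 0.53, 0.63 and 0.07, and the medians of the other 6 lists lie between -0.16 and 0.08. The open points at 5.47 against NS and at 4.24 for SA:ANH-vehicle against NS are Lcn2, a secreted lipocalin, at 7.33 ± 11.6 CPM in SA:ANH-KDM5Ci, 2.97 ± 2.9 CPM in SA:ANH-vehicle and 0.171 ± 0.199 CPM in NS (SD, n = 3).

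The genes that carry the receptor or act beside the members were counted beside the shares of all genes past the threshold. Those shares were 2.51% for SA:ANH-KDM5Ci against SA:ANH-vehicle, 3.97% against NS and 0.0132% for SA:ANH-vehicle against NS. Of 19 receptor chaperones, all tested, 0 passed edgeR's test in any comparison, with medians of 0.04, 0.06 and 0.04 for SA:ANH-KDM5Ci against SA:ANH-vehicle, against NS, and SA:ANH-vehicle against NS. At an unadjusted p under 0.05 in edgeR there were 0, 2 and 3 of them, and 2150, 2796 and 1244 of all 15144 genes. DESeq2 called 1 of the chaperones, against NS, and limma-voom 0. Hspa8, the constitutive HSP70, was at 0.06 (adjusted p = 0.631) and Dnajb1, its J-domain partner, at -0.08 (adjusted p = 0.614) for SA:ANH-KDM5Ci against SA:ANH-vehicle. Against NS Ptges3, an HSP90 co-chaperone, was at 0.18 (SE 0.05, edgeR adjusted p = 0.0554). It passed in 3 of 20 alternatives and not in the others. These were DESeq2 (adjusted p = 0.0141) and edgeR with a replicate block (adjusted p = 0.0454) or without SA:ANH-vehicle replicate 1 (adjusted p = 0.0337), a library of neither group compared.

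Of 18 relatives of the members in the FKBP, TSC22, RASD and HSD11B families, 16 were tested, and Fkbpl rose against NS, at 8.15 ± 0.525 CPM in SA:ANH-KDM5Ci and 5.98 ± 0.279 CPM in NS (log2 fold change 0.44, SE 0.09, edgeR adjusted p = 0.0158). It was at 0.26 (adjusted p = 0.183) against SA:ANH-vehicle. Its edgeR call against NS was lost without NS replicate 3 (adjusted p = 0.0716), without SA:ANH-KDM5Ci replicate 2 (adjusted p = 0.0537) and when the meningeal score was a covariate (log2 fold change 0.46, adjusted p = 0.21). Fkbp10, a chaperone of the endoplasmic reticulum, was at -0.30 against SA:ANH-vehicle (SE 0.11, adjusted p = 0.228). The enzyme Hsd11b2, which inactivates corticosterone, was not tested, with at most 2 counts in a library.

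Of 14 genes of steroid supply and clearance 10 were tested. H6pd, which makes the cofactor for HSD11B1, fell against NS, at 7.53 ± 0.191 CPM in SA:ANH-KDM5Ci and 10.3 ± 0.80 CPM in NS (log2 fold change -0.45, SE 0.11, edgeR adjusted p = 0.0363). It was at -0.39 against SA:ANH-vehicle (SE 0.11, adjusted p = 0.0952). The call against NS was lost in every fit that left out 1 library except those without SA:ANH-vehicle replicate 1 or 3, at an adjusted p of up to 0.146. It was also lost by limma-voom (adjusted p = 0.0505), with the striatal score as a covariate (adjusted p = 0.112) and with the meningeal one (log2 fold change -0.27, adjusted p = 0.514). Cyp11b1, which completes corticosterone synthesis, had at most 1 count in a library, and Star, which feeds cholesterol to steroid synthesis, was at 0.49 against SA:ANH-vehicle (SE 0.18, adjusted p = 0.219). None of the 9 genes listed as partners of RASD1 and NOS1 passed by edgeR, DESeq2 or limma-voom, with 1 at an unadjusted p under 0.05, against NS. That gene, Nos1, the neuronal nitric oxide synthase gene, was at -0.11 against SA:ANH-vehicle (adjusted p = 0.777) and -0.35 against NS (SE 0.13, adjusted p = 0.175). Pgr, the progesterone receptor gene, was at -0.13 (adjusted p = 0.62) for SA:ANH-KDM5Ci against SA:ANH-vehicle and passed by none of these tests in any comparison.

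The comparison of SA:ANH-vehicle with NS addresses the stress without the inhibitor. In it Fkbp5 and Tsc22d3 were the members whose groups did not overlap, at 0.49 and 0.31, while Sgk1, Nfkbia and Rasd1 were at 0.02, 0.15 and 0.17. Over all genes 8.29% did not overlap as higher in this comparison, and 15.1% either way. Fkbp5 was not past the threshold in the reported fit. It was past it in 3 of the 20 alternative fits, among them DESeq2's at 0.48, and ranged from 0.46 to 0.52 over all of them. These fits reuse the libraries whose contrasts entered the choice of the genes, so nothing is read from that count. Globin and other blood markers also differed between these groups, as given above, with 2 of 5 that rose in SA:ANH-vehicle, and their part in the Fkbp5 and Tsc22d3 differences was not tested. The meningeal and striatal scores as covariates left Fkbp5 at 0.49 and 0.48 and Tsc22d3 at 0.31 in both. These scores overlapped between SA:ANH-vehicle and NS, so the fits could change little here, and nothing is read from them. The blood score, at 0.23 to 0.39 in SA:ANH-vehicle and -0.61 to -0.41 in NS, was not used as a covariate.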

How the data were processed

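The deposited values are expected counts, fractional in part, for 9 libraries of medial prefrontal cortex. Total RNA was extracted with Direct-zol and made into SureSelect strand-specific libraries, per the labels' protocols. Per the submitters' processing notes, mm10 was the build and Trimmomatic 0.32, Bowtie2 2.2.3 and TopHat2 2.0.13 were used. Which tool counted, and with what strand setting, is not given in the sources used here. Of 36172 feature IDs, 32891 matched RefSeq's GRCm38.p6 table. The table held 0 columns of other samples.

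The deposited expected counts were rounded, filtered with filterByExpr (15144 genes kept), scaled by TMM (factors 0.987 to 1.01) and tested with edgeR 4.0.16 in R 4.3.3 (robust quasi-likelihood, 1 mean per group over all 9 libraries, Benjamini-Hochberg at 0.05), checked on simulated data. A log2 fold change's SE is its size over the square root of F. Nearest genes used log2 CPM with a prior count of 2. Whether a group's samples are separate mice is not stated, so the spread behind each p may be technical. Alternatives included DESeq2 1.42.0, limma-voom (limma 3.58.1), other scalings and filters, marker scores, a replicate block and leaving out each library.

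The members and lists were chosen with earlier results of these data known. Genes named are the members, per list and comparison up to 6 past the threshold of lowest p or, where none passed, the 2 of lowest p (not all are printed, and some are not reported here), Sgk1, the 3 nearest genes of each member past the threshold, and overlapping neighbours. Depth ran from 29845097 to 42196472 counts.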

Additional observations from a re-analysis of the deposited data

How the results depend on the processing

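Over 20 alternatives, the log2 fold changes of the 7 genes moved by no more than the spread between replicates in 405 of 420 values. The 15 values that moved further were all in the comparisons of SA:ANH-KDM5Ci, and each of the 7 genes moved in both of these. Of the values past the threshold 0 changed sign. Hsd11b1, never past it in the reported fit, ran from -0.25 to 0.04 for SA:ANH-vehicle against NS when 1 library was left out. The alternatives reuse the libraries whose contrasts entered the choice of the genes, so nothing is read from how often a member passed. Fkbp5, Tsc22d3 and Rasd1 were past the threshold against SA:ANH-vehicle in 19 of 20 and against NS in 20 of 20. Nr3c1, not past it in the reported fit, was past it as lower in 3 of 20 against SA:ANH-vehicle (by DESeq2 at -0.22, without TMM at -0.25 and without SA:ANH-vehicle replicate 3 at -0.28) and in 7 of 20 against NS (-0.22 to -0.25). When the meningeal score, whose values do not overlap between SA:ANH-KDM5Ci and the other groups, was a covariate, the number of genes past the threshold was 35 for SA:ANH-KDM5Ci against SA:ANH-vehicle (380 in the reported fit), 117 against NS (601) and 10 for SA:ANH-vehicle against NS (2). With the striatal score it was 132 and 154 for the comparisons of SA:ANH-KDM5Ci. For SA:ANH-vehicle against NS it was 81 by DESeq2, 11 without TMM, 11 without a filter on low counts and 17 in a fit of only these groups. Leaving out 1 library gave 203 to 429, 269 to 747 and 2 to 17 in SA:ANH-KDM5Ci against SA:ANH-vehicle, against NS, and SA:ANH-vehicle against NS.

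Glucocorticoid-induced genes past the threshold numbered 4 with the meningeal score against SA:ANH-vehicle (13 in the reported fit) and 12 to 16 when 1 library was left out. Genes of the other pathway lists past it numbered 0 with either score against SA:ANH-vehicle (1 in the reported fit), and 0 to 1 when 1 library was left out. Against NS (3 in the reported fit) they numbered 8 by DESeq2, 0 with the meningeal score, 1 with the striatal score and 0 to 4 when 1 library was left out. Whether the replicate numbers pair the samples is not known, and correlations among 3 libraries per group cannot settle it. Of the same-numbered pairs 2 of 9 correlated above 0.1, and 3 of 9 correlated best with their own number. The pairs above 0.1 were replicates 1 (0.24) and 3 (0.18) of SA:ANH-KDM5Ci and SA:ANH-vehicle. With the numbers as a block, 363, 708 and 2 genes were past the threshold, and 5 genes of the other pathway lists against NS.

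Among the named list genes, signs changed for Pgr, Nos1 and Sgk1, in comparisons where they had no call. With the meningeal score as a covariate, Pgr was at 0.18 against SA:ANH-vehicle and 0.22 against NS in the comparisons of SA:ANH-KDM5Ci, and Nos1 at 0.00 against SA:ANH-vehicle. With the striatal score Nos1 was at 0.03 against SA:ANH-vehicle and Pgr at 0.01 against NS. When 1 library was left out, Nos1 ranged from -0.21 to 0.03 against SA:ANH-vehicle and Pgr from -0.15 to 0.00 against NS, and for SA:ANH-vehicle against NS Pgr ranged from -0.03 to 0.13 and Sgk1 from -0.04 to 0.09. The cause of these changes was not tested. Rasd1 and Hsd11b1, with 62 to 368 counts a library, have the largest standard errors of the 7.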
